A study of Rattus norvegicus with 9 samples.

Results

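Cytosolic ribosomal proteins are the protein parts of the ribosome that translates nuclear-encoded mRNA, and their transcripts were followed in rat liver during carbon tetrachloride (CCl4) injury with and without rottlerin. The members were the genes of the deposited array table with a single gene symbol beginning with Rpl or Rps followed by a number, p or a, with the ribosomal protein S6 kinases and Rps19bp1 left out. They came to 41 of the 14377 genes with a probe set of their own, 28 of the large and 13 of the small subunit. A gene was read from the probe set with the highest mean signal. The study hybridised liver RNA of 9 male Sprague-Dawley rats, one rat per Affymetrix Rat Genome 230 2.0 array, in 3 groups of 3. The rats' age is not given in the sources used here, nor is the way 9 of the study's rats were picked for the arrays. The vehicle group (animals 3, 4 and 5) had no CCl4. The CCl4 group (animals 1, 2 and 3) was injected intraperitoneally with CCl4 in olive oil on a schedule of 8 weeks. The CCl4+Rot group (animals 4, 5 and 6) had the same CCl4 course and rottlerin, an opener of the large-conductance calcium-activated potassium (BK) channel, at 2.5 mg/kg from 2 weeks after the first CCl4 injection. No group had rottlerin without CCl4, so an action of rottlerin on uninjured liver was not measured, and rottlerin also acts on other targets than this channel. Whole liver was used, so a transcript that differs can come from more or fewer cells of a kind or from more or less RNA per cell, and these cannot be told apart.

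A ribosome is made of ribosomal RNA and one copy of nearly every ribosomal protein, apart from the acidic stalk proteins, which are present in pairs. The genes lie scattered over the chromosomes, yet cells make the proteins in matched amounts, and unassembled copies are degraded. Their mRNAs belong to the most abundant of the cell and carry a 5′ terminal oligopyrimidine (TOP) tract, a C followed by an unbroken run of C and T at the first transcribed base. Through this tract the kinase mTOR, acting partly through Larp1, controls their translation and stability. Liver, which secretes most plasma proteins, is a tissue rich in ribosomes.

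The start regions of these genes are shown first, because the tract is the sequence that the genes share and the selection did not use it. Promoter windows of RefSeq (GRCr8), each with 250 bases before and 50 bases after the annotated start, were found for 33 of the 41 genes, 32 by gene ID. In the lines that follow, 10 bases before the start and the first 20 transcribed bases are given 5′ to 3′. Capitals mark the longest run of at least 5 bases that can be read from a C within 5 bases of the annotated start and continues with C or T. Bases further upstream were not read, so a run can begin before the capitals, as in Rpl14, Rpl22 and Rps24.
Rplp0: caccgcaCTTCTCTCgccaggcgtcctcat
Rpl14: ggccctCTCCCTTCTCgctgagcgccgcca
Rpl19: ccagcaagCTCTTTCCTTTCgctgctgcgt
Rpl22: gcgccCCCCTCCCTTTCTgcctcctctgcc
Rps3a: gtacttccgCCCTTTTggctctcagagcgg
Rpl12: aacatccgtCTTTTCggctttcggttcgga
Rps24: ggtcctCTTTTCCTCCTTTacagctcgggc
Rpl26: gtcaacttacagaaccggaagtcgcatgta
Rpl7l1: cagatgcattgtgggaagcctttaactcgt
Rps27l: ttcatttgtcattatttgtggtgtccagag
The windows lie at chr12:46718371-46718400 (minus strand) for Rplp0, chr8:129163610-129163639 (plus) for Rpl14, chr10:83519054-83519083 (plus) for Rpl19, chr5:168117951-168117980 (plus) for Rpl22 and chr2:173827023-173827052 (minus) for Rps3a. Those of Rpl12, Rps24, Rpl26, Rpl7l1 and Rps27l, all on the plus strand, lie at chr3:36661930-36661959, chr16:96507-96536, chr10:54109682-54109711, chr9:21695708-21695737 and chr8:76443648-76443677.

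In the first 5 lines such a run can also be read from the annotated start itself, where the base is a C. In Rpl12 and Rps24 the run covers the start, but the base there is a T. The last 3 have no such run. A run of at least 5 bases read from the annotated start itself was found in 10 of the 33 windows (30.3%), against 2.63% of all 33469 promoter windows. Read from any C up to 5 bases to either side, a run was found in 18 of the 33 (54.5%), against 17% of all. Both counts include runs that begin further upstream. Annotated starts can be off by some bases, and a window without the run says only that these letters were not found there. 2 short motifs of such promoters were searched on both strands over the whole window. CCGGAAG, which an Ets factor can bind, was in 8 of 33 windows (24.2%, against 8.75% of all), and AAGATGGCG, a core that Yy1 can bind, was in 2 of 33 (6.06%, against 1.73%). The end of the first motif can overlap the beginning of the other.

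The deposited signals were log2 values from MAS5, which scales every array to the same trimmed mean, and the arrays carry a detection call per probe set. Of the 41 genes, 36 were called present on all 9 arrays, and 33 of these were abundant, here taken as a mean log2 signal of at least 12 (range of their means 12.77 to 14.37). The other 3 present genes, the copies Rpl7l1, Rps27l and Rps4y2, were dimmer. The probe set of Rps13 was called present on 4 arrays and that of Rpl30 on 1. Those of Rpl28, Rpl39l and Rpl3l were present on none, and no fold is given for them. Rpl3l is known as a muscle form of Rpl3 and Rpl39l as a testis form of Rpl39, whereas Rpl28 is an ordinary large-subunit protein whose single-symbol probe set gave no detectable signal.

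One array stood apart before any group was compared. CCl4 3 had 12714 probe sets called present against 15550 to 16849 on the other 8, and its 9 hybridisation controls, bacterial transcripts added in equal amount, lay 0.48 below the vehicle mean on the log2 scale against 0.18 below to 0.12 above on the other arrays. Its other genes in the signal range of the abundant ribosomal protein genes (354 genes, translation factors left out) lay 0.45 below the vehicle mean by their median, against at most 0.13 below on the other arrays. The main results with the CCl4 group are therefore given with and without CCl4 3, and its part in them was not tested beyond leaving it out. All 12 measured hepatocyte markers were called present on all 9 arrays, as the label liver requires.

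The first comparison, CCl4 against vehicle, asks which transcripts differ in the fibrotic liver. No ribosomal protein gene passed the test in this comparison (limma adjusted p under 0.05 and at least 1.5-fold), where the share called among all genes was also 0%. All 41 had a higher mean in CCl4 than in vehicle, by a median of 0.22 on the log2 scale, against a median of 0.13 over all genes and of -0.01 over the 7058 genes present on all 9 arrays. The 354 other genes of the same signal range had a median of -0.22. Centring every array on its own median instead turns the direction, to a median of -0.14 for the ribosomal protein genes, since that scaling moves CCl4 3 further down than the rest.

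None of the 41 genes was higher at an unadjusted p under 0.05, against 9.49% of all genes, and none was lower, against 4.01%. The smallest adjusted p among them was 0.43. In 2 of the 41, all CCl4 arrays lay above all vehicle arrays, against 12.5% of all genes. They were Rpl12 and Rpl28, whose own probe set was present on no array. None of these shares was above that of all genes.

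The 3 arrays were split in the same way for nearly every gene. On CCl4 1 and CCl4 2 the 33 abundant genes lay 0.41 and 0.38 above their vehicle mean by the median, and no single gene of the 33 was below its vehicle mean on either. These were the 2 highest of the 9 arrays for 33 of the 33 genes, against 3.34% of all genes and 7.91% of the other genes of the same signal range. On CCl4 3 the same genes lay 0.11 below vehicle by the median, and 32 of the 33 lay inside or under the vehicle range there. The CCl4+Rot arrays lay between, at 0.19, 0.17 and 0.17 above vehicle. The ordering was noticed in these data and is given as a description.

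**Figure D1:**
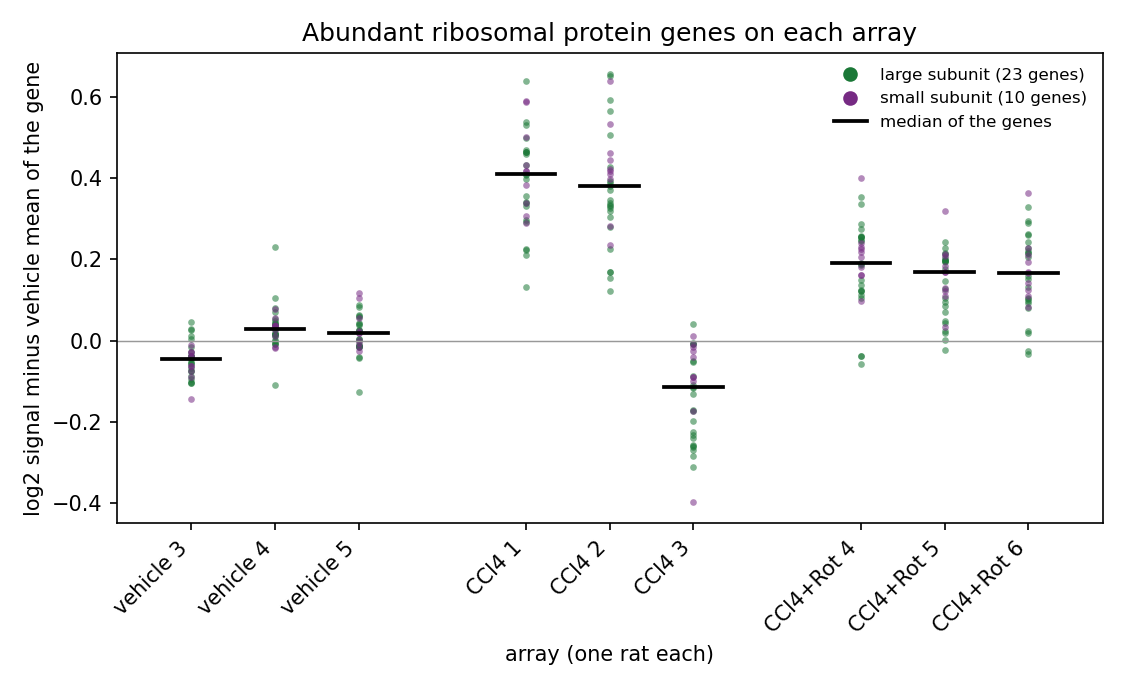
Log2 signal of each of the 33 abundant ribosomal protein genes minus its vehicle mean (vertical axis) on each of the 9 arrays (horizontal axis), in the deposited scaling; each point is a gene, coloured by subunit, and the black bars are medians. The genes of both subunits sit together at about 0.4 on CCl4 1 and CCl4 2, at -0.11 on CCl4 3 and between 0.17 and 0.19 on the CCl4+Rot arrays.

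The position of CCl4 3 depended on what the array was scaled to, and that of the other arrays much less. With the median of the other genes of the same signal range as the zero of each array, the abundant ribosomal protein genes lay 0.47, 0.50 and 0.33 above vehicle on CCl4 1, 2 and 3 and between 0.24 and 0.28 on the CCl4+Rot arrays. With the hybridisation controls as zero they lay 0.44, 0.60 and 0.41 above vehicle on the CCl4 arrays, and after quantile normalisation 0.42, 0.44 and 0.30. Only the array median as zero put CCl4 3 below vehicle by more than the deposited scaling did, at -1.07, with CCl4 1 and 2 at 0.45 and 0.22. CCl4 1 and CCl4 2 were thus above all 3 vehicle arrays in each of the 5 scalings, and CCl4 3 in 3 of them.

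**Figure D2:**
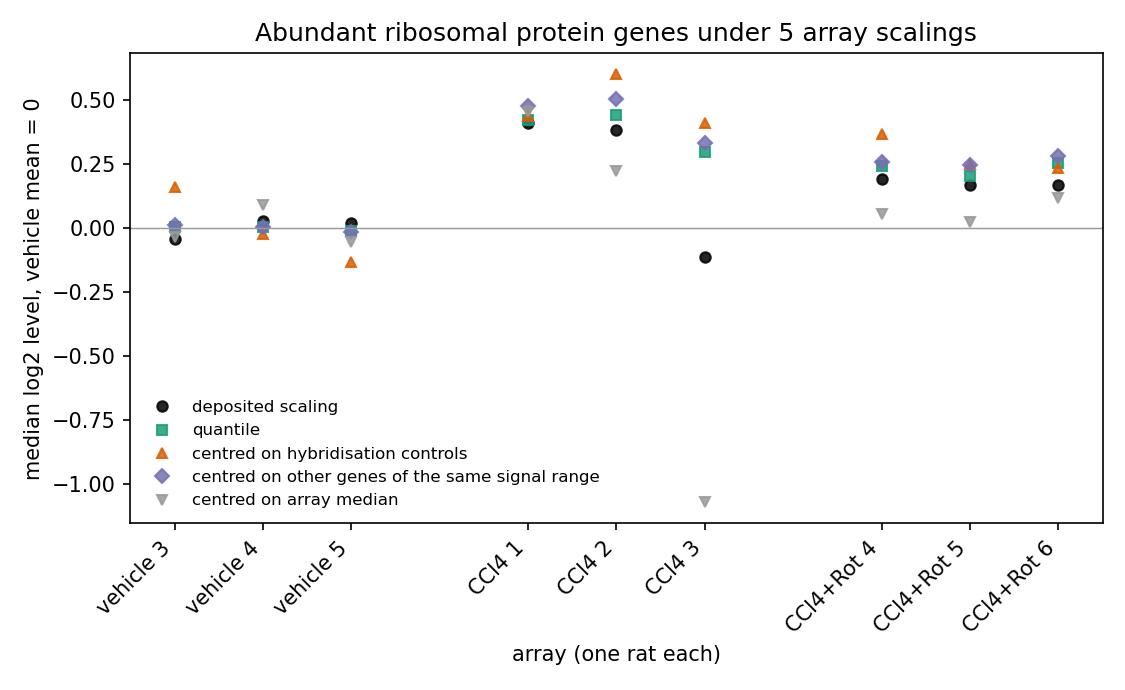
Median log2 level of the 33 abundant ribosomal protein genes on each array, with the vehicle mean at 0, under the deposited scaling and 4 others (symbols). CCl4 1, CCl4 2 and the CCl4+Rot arrays stay above 0 in all 5, whereas CCl4 3 lies between 0.30 and 0.41 in 3 scalings, at -0.11 in the deposited one and at -1.07 when each array is centred on its median.

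Without CCl4 3, the median difference from vehicle was 0.37 for the 41 genes, against 0.03 over all genes, and 24 of the 41 were higher at an unadjusted p under 0.05 (limma), against 7.8% of all genes. In 34 of the 41 both CCl4 arrays lay above all vehicle arrays, against 17.9% of all genes. None passed the adjusted threshold, the smallest adjusted p being 0.235 for Rps15a. With only 3 arrays per group, an exact two-sided permutation test of a single gene cannot give a p under 0.1.

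Among the proteins of the stalk base, where the translation factors bind, Rplp0 and Rpl12 were measured on probe sets of their own. Rplp0, the anchor of the acidic stalk proteins, had log2 signals of 13.53, 13.52 and 13.53 in vehicle, 14.06, 14.12 and 13.30 in CCl4 and 13.78, 13.76 and 13.79 in CCl4+Rot. The vehicle and CCl4+Rot arrays were each tight and did not overlap, while the CCl4 arrays lay on both sides of them. Its mean difference of CCl4 from vehicle was 0.30 ± 0.23 (SE, n = 3 and 3, limma adjusted p = 0.617), and 0.56 ± 0.13 without CCl4 3 (adjusted p = 0.255).

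Rpl12, which sits beside Rplp0 at the base of the stalk, had log2 signals of 13.18, 13.22 and 13.26 in vehicle, 13.72, 13.87 and 13.26 in CCl4 and 13.48, 13.44 and 13.46 in CCl4+Rot. CCl4 3 stood level with the highest vehicle array, and the other 5 treated arrays lay clear of it. The difference of CCl4 from vehicle was 0.40 ± 0.19 (1.32-fold, adjusted p = 0.445) and 0.57 ± 0.13 without CCl4 3 (adjusted p = 0.266). Over both genes the order of the arrays was the one described for the whole set.

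Rps15a, a protein of the small subunit body, showed the largest difference of the genes present on all arrays. Its log2 signals were 13.21, 13.26 and 13.20 in vehicle, 13.81, 13.86 and 13.21 in CCl4 and 13.62, 13.54 and 13.59 in CCl4+Rot. CCl4 3 fell within the vehicle range, and the remaining treated arrays were all above it. The difference of CCl4 from vehicle was 0.41 ± 0.20 (1.32-fold, adjusted p = 0.457), and 0.61 ± 0.13 (adjusted p = 0.235) without CCl4 3. With a trended and robust variance estimate, chosen after the data were seen, Rps15a and Rpl22 passed the threshold without CCl4 3 (adjusted p = 0.0162 and 0.0234). With the same estimate on all arrays, centred on the other genes of the signal range, Rps15a and Rpl12 passed it (adjusted p = 0.00528 and 0.00423). This centring was also chosen after the data were seen, and it put the median of all genes at 0.34. With this estimate, 9.99% of all genes were higher at an unadjusted p under 0.05 without CCl4 3, and 18.2% with the centring.

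Around the exit of the tunnel through which the new protein chain leaves the large subunit, 5 genes were measured, Rpl19, Rpl22, Rpl23a, Rpl26 and Rpl35. Rpl22, which is not essential to the ribosome and has a close copy, had log2 signals of 13.02, 13.01 and 13.00 in vehicle, 13.55, 13.66 and 12.84 in CCl4 and 13.35, 13.22 and 13.34 in CCl4+Rot. CCl4 3 was the lowest of all 9 arrays for it. The mean difference of CCl4 from vehicle was 0.34 ± 0.23 (adjusted p = 0.572) for Rpl22, the highest of these genes, and 0.13 ± 0.19 (adjusted p = 0.802) for Rpl19, the lowest. The list as a whole had a median of 0.25, and 0.42 without CCl4 3, where all 5 lay above all vehicle arrays (17.9% of all genes did).

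Rpl11 joins Rpl5 and 5S ribosomal RNA in a particle that also binds the p53 inhibitor Mdm2. Its log2 signals were 13.62, 13.69 and 13.69 in vehicle, 14.13, 14.06 and 13.66 in CCl4 and 13.94, 13.80 and 13.77 in CCl4+Rot. Here too CCl4 3 was inside the vehicle range and the other treated arrays were above it. The difference of CCl4 from vehicle was 0.28 ± 0.17 (adjusted p = 0.535), and 0.43 ± 0.14 without CCl4 3 (adjusted p = 0.343). Rpl11, Rpl26 and Rps24, the 3 measured genes of a list mutated in Diamond-Blackfan anaemia, an inherited red-cell deficiency, had differences of 0.28, 0.16 and 0.29, and of 0.43, 0.32 and 0.43 without CCl4 3.

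In the head of the small subunit, the part that swivels as mRNA moves, 4 genes were measured and had a median difference of 0.26, and of 0.45 without CCl4 3. Rps16, one of them, differed by 0.30 ± 0.18 (adjusted p = 0.534), and by 0.46 ± 0.14 without CCl4 3 (adjusted p = 0.328). Without CCl4 3 all 4 were higher at an unadjusted p under 0.05 (7.8% of all genes were) and none overlapped vehicle (17.9% of all genes did not).

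Some members had mean differences near 0 in this comparison. Rpl27a had log2 signals of 14.09, 14.28 and 14.17 in vehicle, 14.31, 14.30 and 13.95 in CCl4 and 14.12, 14.18 and 14.15 in CCl4+Rot. CCl4 1 and 2 lay just above the highest vehicle array for Rpl27a, and CCl4+Rot lay within the vehicle range. The smallest differences of CCl4 from vehicle among the abundant genes were 0.01 ± 0.16 for Rpl27a, 0.02 ± 0.18 for Rpl18 and 0.05 ± 0.18 for Rpl27. These means include CCl4 3, and without it the differences were 0.13 ± 0.14, 0.19 ± 0.13 and 0.20 ± 0.14. The 33 abundant genes spread between 0.01 and 0.41 in this comparison with a standard deviation of 0.10 between genes. The standard error of a gene holds array differences that the genes share, so it cannot be set against this spread.

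Several of these genes are used as reference genes in quantitative PCR. Of a list of 10 such genes, 5 were measured (Rplp0, Rpl13a, Rpl19, Rpl27 and Rps16), and their median difference of CCl4 from vehicle was 0.22, and 0.36 without CCl4 3. Rpl27 differed least of them across the 3 groups, with 0.05 for CCl4 against vehicle, -0.00 for CCl4+Rot against CCl4 and 0.04 for CCl4+Rot against vehicle, but without CCl4 3 the first 2 became 0.20 and -0.15. All 5 had CCl4 1 and 2 above all vehicle arrays.

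**Figure D3:**
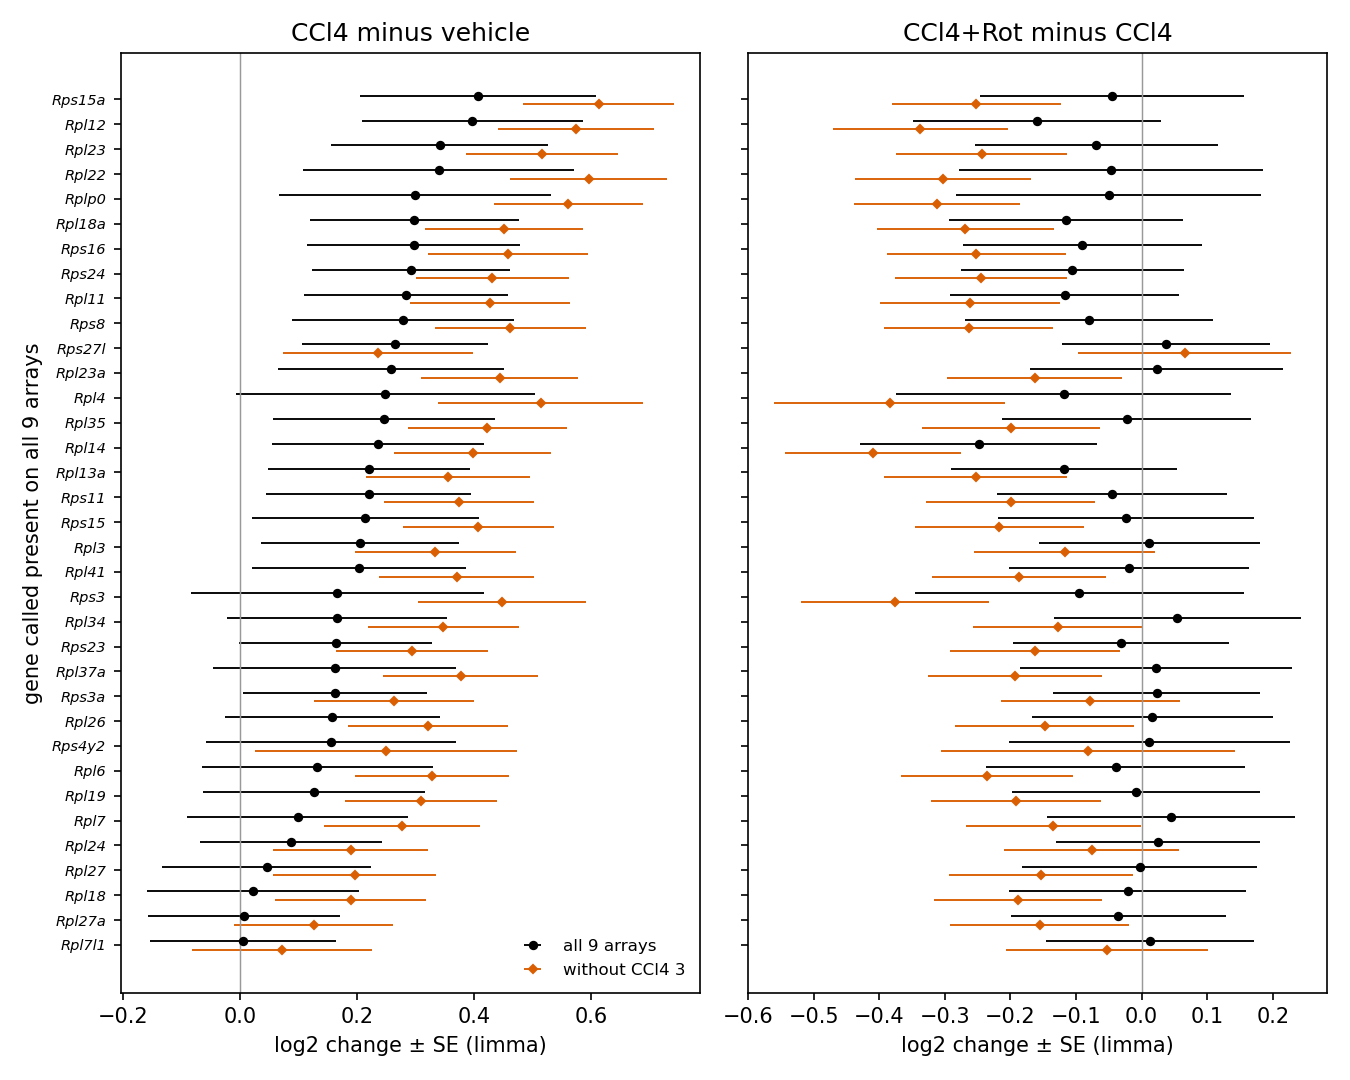
Log2 change with its standard error (limma, horizontal axis) of 35 of the 36 ribosomal protein genes present on all 9 arrays (vertical axis), with the first comparison (CCl4 minus vehicle) on the left and the second (CCl4+Rot minus CCl4) on the right, with all arrays (black circles) and without CCl4 3 (orange diamonds). All points on the left are above 0 in the deposited scaling. With all arrays they run from 0.01 for Rpl7l1 to 0.41 for Rps15a, and without CCl4 3 from 0.07 to 0.61. Those on the right are scattered around 0 with all arrays and lie below 0 for 34 of the 35 genes drawn without CCl4 3. With arrays centred on their median, the medians of both comparisons turn, to -0.14 and 0.21.

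The second comparison, CCl4+Rot against CCl4, asks which transcripts rottlerin shifts in the injured liver. No member passed the test (share called among all genes 0%), none was higher at an unadjusted p under 0.05 (2.1% of all genes) and none was lower (3.4%). The differences were small, with 12 genes higher and 29 lower and a median of -0.04, against -0.05 over all genes, and the smallest adjusted p was 0.765. In none of the 41 were the 2 groups apart, where 5.6% of all genes had CCl4+Rot below all CCl4 arrays. With arrays centred on their median the 41 genes had a median of 0.21.

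Leaving out CCl4 3 moved the median to -0.20 (all genes 0.01), with 39 of the 41 lower in CCl4+Rot, whereas leaving out CCl4 1 or CCl4 2 turned its sign, to at most 0.05. Without CCl4 3, 5 members, among them Rpl12, Rpl14 and Rplp0, were lower at an unadjusted p under 0.05 (limma), against 2.43% of all genes. In the same fit 33 lay below both CCl4 arrays on all CCl4+Rot arrays, against 10.4%. The smallest adjusted p was 0.707, so that none passed.

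Rpl14, a large-subunit surface protein, had the largest difference between these groups among the genes present on all arrays. Its log2 signals were 12.64, 12.71 and 12.74 in vehicle, 13.16, 13.03 and 12.61 in CCl4 and 12.66, 12.67 and 12.72 in CCl4+Rot. Its CCl4+Rot arrays fell in the vehicle range, unlike those of most members, and CCl4 3 was lowest of all. CCl4+Rot was lower than CCl4 by 0.25 ± 0.18 (SE) on the log2 scale (adjusted p = 0.783). Without CCl4 3 the difference was -0.41 ± 0.13 (adjusted p = 0.707). A further probe set of Rpl14 was present on no array.

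Rpl12 had a difference of -0.16 ± 0.19 in the same direction, and of -0.34 ± 0.13 without CCl4 3 (adjusted p = 0.757). Among the genes present on all arrays, the largest differences in the other direction were 0.05 for Rpl34, 0.04 for Rpl7 and 0.04 for Rps27l. These 3 were smaller than their standard errors, and without CCl4 3 they were -0.13, -0.13 and 0.07.

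The third comparison, CCl4+Rot against vehicle, asks what differs from uninjured liver under both agents. It does not involve CCl4 3 except through the shared spread, and it shares the vehicle arrays with the first. No member passed the test, where 0.0209% of all genes did, and none was higher (7.46% of all genes) or lower (2.33%) at an unadjusted p under 0.05. By limma without CCl4 3, 2 were higher at that level (9.44% of all genes). The methods' t-test, which uses only the 2 groups, put 25 there (10.3% of all genes), with a smallest Benjamini-Hochberg adjusted p of 0.128. Of the 41, 36 were higher in CCl4+Rot, by a median of 0.17 over all members against 0.03 over all genes and -0.08 over the other genes of the same signal range. In 26 of the 41 all CCl4+Rot arrays lay above all vehicle arrays, against 15.2% of all genes. Centring arrays on their median kept the sign of the median (0.06) and left 7 of the 41 apart.

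The group was tight: the medians of the abundant genes on the 3 CCl4+Rot arrays were 0.17 to 0.19, with a standard deviation of 0.01 between arrays, against 0.29 in CCl4 and 0.04 in vehicle. The largest difference was that of Rps15a, 0.36 ± 0.20 (1.28-fold, adjusted p = 0.739). Rpl22 followed at 0.29 ± 0.23 among the abundant genes. The 2 abundant genes with a lower mean in CCl4+Rot were Rpl27a (-0.03) and Rpl14 (-0.01).

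In 25 of the 41 genes, all of them abundant, the whole order held, with vehicle lowest, CCl4+Rot in the middle and CCl4 1 and 2 highest. The same order was found in 0.981% of all genes and in 1.56% of the genes present on all arrays. It leaves out CCl4 3 and was looked for after the values had been seen, so it is given without a test.

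The medians of the large and small subunit genes lay within 0.10 of each other on every array. The median difference of CCl4 from vehicle was 0.21 for the 28 large-subunit and 0.26 for the 13 small-subunit genes. Between CCl4+Rot and CCl4 it was -0.03 and -0.05, and between CCl4+Rot and vehicle 0.15 and 0.18. With arrays centred on their median the first pair became -0.15 and -0.09 and the second 0.22 and 0.20. In the deposited scaling with all arrays the difference between the subunits was at most 0.05 in any comparison, and with single arrays left out it reached -0.0925 in the first, without CCl4 1. On single arrays it ranged from -0.10 (CCl4 3) to 0.02 (CCl4 1). The vehicle arrays alone ranged from -0.02 to 0.02. In the first comparison the difference of -0.05 shrank to -0.00 when the probe sets of a gene were averaged and to -0.01 when probe sets that can hybridise to several transcripts were avoided. Among the small-subunit genes these choices changed only Rps24, whose bright probe set differed by 0.29 and whose dim one by 0.05. The abundant genes alone had medians of 0.20 (large) and 0.25 (small) in this comparison. The standard deviation of the gap between replicate arrays was 0.04.

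**Figure D4:**
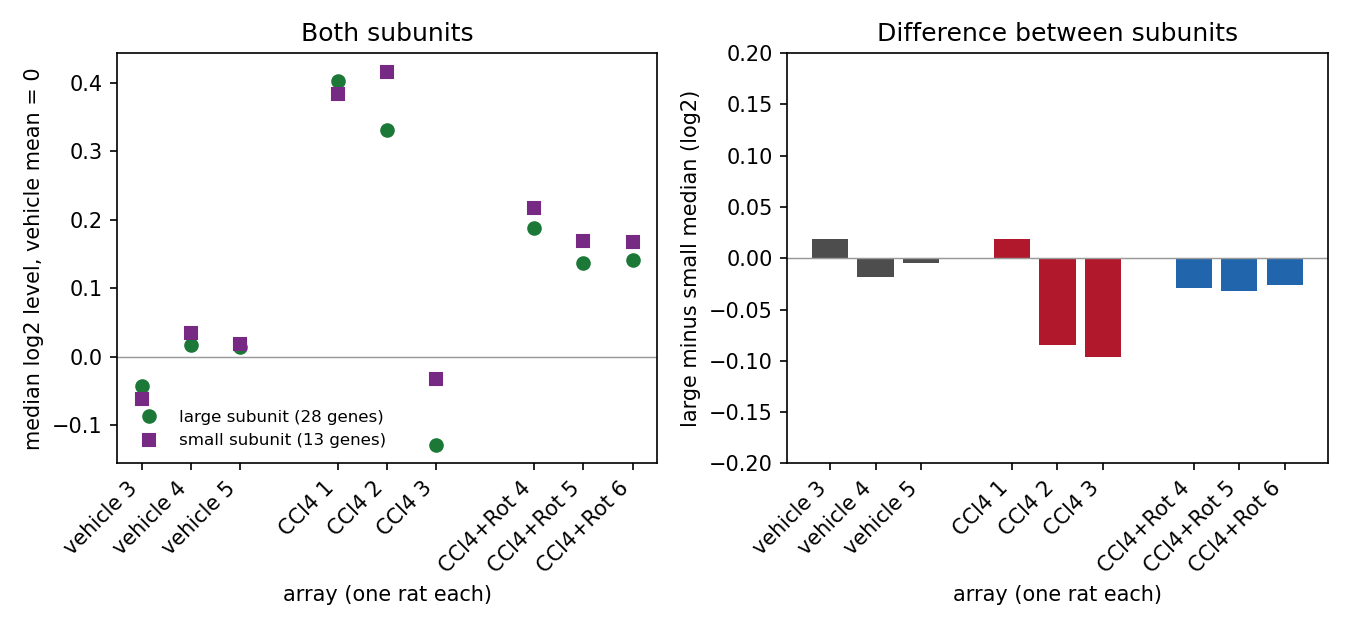
Left, median log2 level of the 28 large-subunit (circles) and 13 small-subunit (squares) genes on each array, vehicle mean at 0; right, large minus small median on each array, coloured by group (grey vehicle, red CCl4, blue CCl4+Rot). Both subunits follow the same array pattern in the deposited scaling (medians of both turn sign in the first 2 comparisons with arrays centred on their median), and the gap between them stays between -0.10 and 0.02.

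The dimmer copies did not share the pattern of the abundant genes. Rpl7l1, a nuclear relative of Rpl7 with a part in ribosome assembly, had log2 signals of 10.83, 10.88 and 10.72 in vehicle, 10.92, 10.84 and 10.68 in CCl4 and 10.68, 10.97 and 10.83 in CCl4+Rot. The groups overlapped fully, and the difference of CCl4 from vehicle was 0.01 ± 0.16. Rps27l, a copy of Rps27 that p53 can induce, had 10.54, 10.79 and 10.54 in vehicle, 10.72, 11.00 and 10.95 in CCl4 and 10.90, 10.90 and 10.97 in CCl4+Rot.

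For Rps27l, unlike the abundant genes, CCl4 3 was not low, and CCl4 1 was the CCl4 array within the vehicle range. Its CCl4+Rot arrays all lay above vehicle, by 0.30 ± 0.16 (1.23-fold, adjusted p = 0.712). Rps4y2, a copy of the Rps4 gene, had differences of 0.15 ± 0.21 from vehicle in CCl4 and 0.17 ± 0.21 in CCl4+Rot, with overlapping groups.

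Among the genes present on all arrays, the start sequence did not sort the members by their values. The 9 genes with a run at the annotated start had a median difference of CCl4 from vehicle of 0.21, the 7 with a run near it 0.25 and the 13 with none 0.20. Their ranges overlapped nearly in full, from 0.13 to 0.34, from 0.01 to 0.40 and from 0.01 to 0.41.

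A few members had a further probe set of their own. That of Rpl7, present on all arrays, differed by 0.11 ± 0.18 between CCl4 and vehicle, close to the 0.10 ± 0.19 of the probe set used. Those of Rpl3 and Rps24 differed by 0.76 ± 0.54 and 0.05 ± 0.21. For CCl4+Rot minus CCl4 the further probe set of Rps24 gave 0.28 ± 0.21 against -0.11 ± 0.17 for the one used, so the sign for Rps24 rests on the choice of probe set. The sign of this comparison also turned for Rpl7 (-0.12 ± 0.18 against 0.04 ± 0.19) and for Rpl3 (-0.52 ± 0.54 against 0.01 ± 0.17).

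Most of the remaining ribosomal proteins are read by probe sets that name several genes, often with a processed copy, and these were left out of the rule. A look at them, made after the members' values were known, found 50 such probe sets. Their medians were 0.22, -0.04 and 0.17 in the 3 comparisons, and 0.36 for CCl4 minus vehicle without CCl4 3. With all arrays 48 of the 50 were higher in CCl4 than in vehicle, in the deposited scaling. Probe sets of this kind that name Rpl28, Rpl30 and Rps13 were present on all 9 arrays, unlike the single-symbol probe sets of these genes. Signals of such probe sets can stem from any gene they name.

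With all arrays, genes that work with the ribosome had medians near 0, and their difference from the ribosomal protein genes was not tested. For CCl4 against vehicle 9.49% of all genes were higher and 4.01% lower at an unadjusted p under 0.05, and with CCl4 3 left out these shares were 7.8% and 4.64%. Of 33 measured translation factors, 2 were higher in CCl4 than in vehicle at an unadjusted p under 0.05 and none was lower, with a median of 0.02. Without CCl4 3 the factors had a median of 0.14, with 16 of 33 above all vehicle arrays (17.9% of all genes), and in CCl4+Rot against CCl4 a median of -0.09 with 30 of 33 lower, the same signs as the ribosomal protein genes. The 2 were Eef1g, a subunit of the factor that reloads Eef1a (0.52 ± 0.19, adjusted p = 0.35, and 0.69 ± 0.15, adjusted p = 0.238, without CCl4 3), and Hnrnpa1, an RNA-binding protein whose mRNA also has a TOP tract (0.49 ± 0.18, adjusted p = 0.354, and 0.46 ± 0.20, adjusted p = 0.444, without CCl4 3). Of 69 ribosome biogenesis genes, 1 was higher and 4 were lower, with a median of -0.06, and without CCl4 3 none was higher and 3 were lower. Polr1b, a core subunit of RNA polymerase I called present on 6 arrays, was lower by a log2 difference of -0.57 ± 0.18 (adjusted p = 0.293), while Polr1a, its largest subunit, was higher by 0.55 ± 0.22 (adjusted p = 0.385). Without CCl4 3 the differences of Polr1b and Polr1a were -0.51 ± 0.18 (adjusted p = 0.374) and 0.42 ± 0.23 (adjusted p = 0.533).

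The 68 mitochondrial ribosomal proteins, which build the separate ribosome of that organelle, had medians of -0.01, 0.00 and -0.01 in the 3 comparisons. None was higher or lower at an unadjusted p under 0.05 in CCl4 against vehicle (9.49% and 4.01% of all genes). Without CCl4 3, 4 were higher (7.8% of all genes), 20 of the 68 lay above all vehicle arrays (17.9% of all genes) and the median was 0.04. Between CCl4+Rot and CCl4, 1 was lower (3.4% of all genes), Mrpl55 (-0.50 ± 0.19, adjusted p = 0.747). Without CCl4 3 none was lower by this measure, and Mrpl55 differed by -0.45 ± 0.21 (adjusted p = 0.782).

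Of 29 regulators of ribosome production and mRNA translation, 4 were higher and 3 lower in CCl4 than in vehicle at an unadjusted p under 0.05 (limma). Of all genes 9.49% were higher and 4.01% lower. The regulators had a median of -0.05, and 2 were higher and 1 lower without CCl4 3 (7.8% and 4.64% of all genes). The p53 target Cdkn1a, called present on 4 arrays, was higher by 1.14 ± 0.31 (adjusted p = 0.255), and Eif2ak2, the double-stranded RNA sensor that blocks initiation, was lower by a log2 difference of -0.78 ± 0.22 (adjusted p = 0.26). In CCl4+Rot against CCl4, Eif2ak2 was higher by 1.04 ± 0.22 (adjusted p = 0.608). Without CCl4 3 the difference of CCl4 from vehicle was 0.84 ± 0.26 for Cdkn1a (adjusted p = 0.33) and -0.89 ± 0.23 for Eif2ak2 (adjusted p = 0.288), and that of CCl4+Rot from CCl4 was 1.14 ± 0.23 for Eif2ak2 (adjusted p = 0.438). Against vehicle, CCl4+Rot had less Eif4ebp2, a repressor of cap-dependent initiation (-0.51 ± 0.16, adjusted p = 0.434), and more Ddit4, an mTOR inhibitor (0.71 ± 0.28, adjusted p = 0.563). CCl4 alone differed from vehicle in the same way, by -0.42 ± 0.16 (adjusted p = 0.363) and 0.75 ± 0.28 (adjusted p = 0.359). Between CCl4+Rot and CCl4 the 2 genes differed by only -0.08 ± 0.16 and -0.04 ± 0.28. In CCl4+Rot against vehicle, 2 regulators were higher and 1 lower at an unadjusted p under 0.05 (7.46% and 2.33% of all genes). None of these passed the adjusted threshold.

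**Figure D5:**
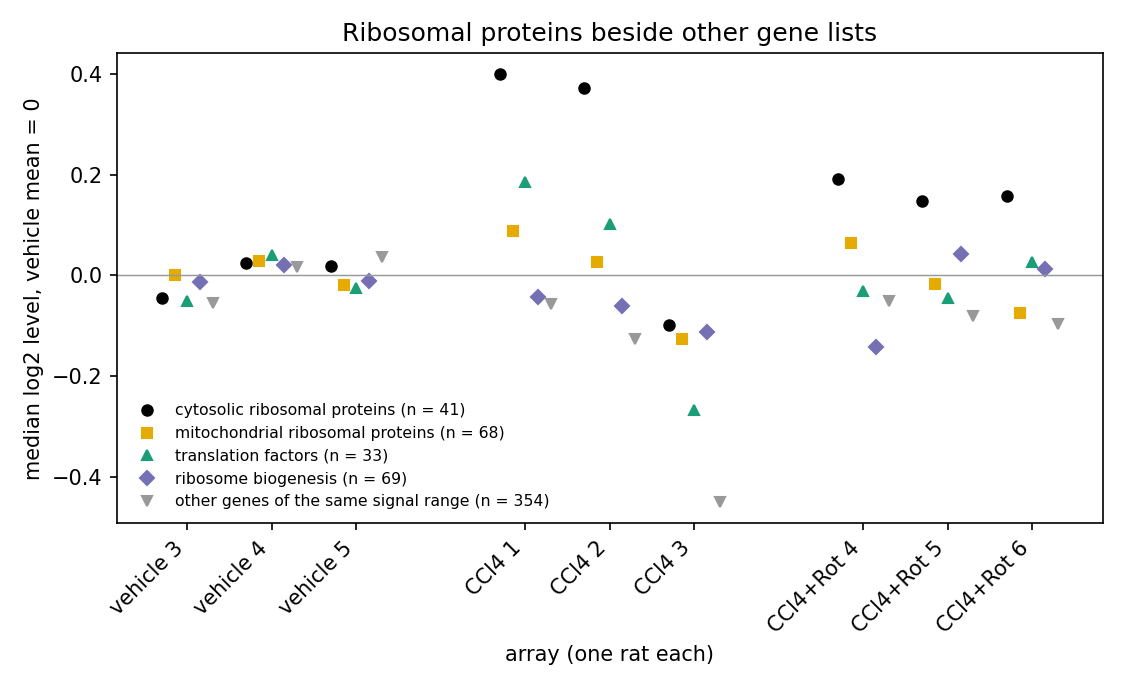
Median log2 level on each array (vehicle mean at 0, deposited scaling) of the 41 cytosolic ribosomal protein genes (black circles), 68 mitochondrial ribosomal proteins, 33 translation factors, 69 ribosome biogenesis genes and 354 other genes of the signal range of the abundant ribosomal protein genes. The black circles lie above the other lists on CCl4 1, CCl4 2 and all CCl4+Rot arrays, and all 5 lists lie below 0 on CCl4 3.

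Marker sums of some other cells also differed between vehicle and the treated groups, whereas those of endothelial cells and hepatocytes overlapped. Summed linear signals of 15 leukocyte markers were 14463 to 18618 in vehicle, 20433 to 24201 in CCl4 and 24645 to 27883 in CCl4+Rot, with 8 of the 15 present on all arrays and Cd2, Cd8a and Itgam on none. Those of 12 myofibroblast markers were 9179 to 14472, 21189 to 35974 and 31168 to 38932, with 10 present on all arrays and Thy1 on none. Both sums, in the deposited scaling, were higher on every treated array than on every vehicle array, CCl4 3 included. Within the CCl4 group the leukocyte sum was lowest on CCl4 3 and the myofibroblast sum on CCl4 1. The abundant ribosomal protein genes lay above all vehicle arrays on CCl4 3 in 3 of the 5 scalings, the deposited one not among them. Gene by gene, 12 of the 15 leukocyte markers had a higher mean in CCl4 than in vehicle and 3 a lower one. All 12 myofibroblast markers had a higher one. The sums of 11 proliferation markers were 2657 to 2756, 3246 to 5629 and 2956 to 3871, the highest on CCl4 3. Of the 11, 5 were present on all arrays, with 9 present on CCl4 1, 11 on CCl4 2 and 9 on CCl4 3. The array median of CCl4 3 stood at 7.81 on the log2 scale, against 6.79 to 7.01 on the other arrays. Its part in the proliferation sum of CCl4 3 was not tested.

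The sums of the 7 cholangiocyte markers, whose defining Krt7 and Cldn7 were present on no array, were 979 to 1130, 2830 to 5504 and 1359 to 2606. Only 2 of the 7 were present on all arrays. Gene by gene, 6 had a higher mean in CCl4 than in vehicle and 1 a lower one. Their median log2 difference was 0.83 and the largest 5.00. In CCl4+Rot against CCl4, 2 were higher and 5 lower. For the 7 endothelial markers the sums were 9885 to 11121, 7766 to 10447 and 10265 to 11221. The sums of the 12 hepatocyte markers were 294322 to 332763, 210407 to 320858 and 308868 to 312146, with the lowest on CCl4 3. The part of the cell mixture in the ribosomal protein values was not tested.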

How the data were processed

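Total RNA of frozen liver was labelled as biotin cRNA by 3′ in vitro transcription and hybridised to 9 arrays, one per rat. The authors deposited one table of log2 signals and detection calls for 31099 probe sets. The submitters' processing notes name MAS5 and affy without versions. Antilogs of the deposited log2 signals had a trimmed mean (2% off each end) of 500 on every array. The scaling was kept. The genome build of the table's coordinates is not given in the sources used here, and none of them is printed. The number of arrays, not a read depth, limits the precision.

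After removal of 57 control probe sets, 31042 entered a limma fit (version 3.58.1, R 4.3.3; 3 group means, all arrays, Benjamini-Hochberg adjustment over all probe sets). A gene was called at an adjusted p under 0.05 and at least 1.5-fold. Genes are the 14377 symbols with a single-symbol probe set. The fit was tested on simulated data. Detection calls served to say on how many arrays a gene was present. Named genes were, in each comparison, the 10 with the smallest p, the 3 largest differences in each direction among those present on all arrays, the measured genes of 4 lists (stalk base, 5S particle, reference genes, copies) and, in lists of other genes, the 3 smallest p. The members and lists were chosen with earlier results of these data known. The methods name no test for the arrays and treat a 1.5-fold difference as their threshold. Each array was taken as a separate rat from the numbered labels, and where it is not, p-values measure only the spread between these samples.

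Alternatives tried were quantile normalisation, centring on array medians, on hybridisation controls or on genes of the same signal range, 2 filters, fits of 2 groups alone, a trended robust prior, the methods' t-test, a 2-fold threshold, the animal number as a replicate block, other choices of probe set and each array left out. Vehicle and CCl4+Rot share the animal numbers 4 and 5, and vehicle and CCl4 share 3.
Promoter windows came from RefSeq (GRCr8). Centring on controls or on genes of the signal range, and the trended robust prior on those values, after quantile normalisation or without CCl4 3, were added after the data were seen. The values of 1 member are not reported here by name.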

Additional observations from a re-analysis of the deposited data

How the results depend on the processing

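No ribosomal protein gene was called in any comparison by limma with all arrays, nor with any single array left out, under the other scalings without the trended robust prior, or with either filter. Over all probe sets 0, 1 and 8 were called for CCl4 against vehicle, CCl4+Rot against CCl4 and CCl4+Rot against vehicle, and the counts of members at an unadjusted p under 0.05 were 0 in each. The cause of the differences that follow was not tested.

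For CCl4 against vehicle, members higher at an unadjusted p under 0.05 numbered 23 after quantile normalisation (all genes 7.25%), 19 with hybridisation controls as zero (13.4%), 25 with other genes of the signal range as zero (14.6%), 5 with the trended robust prior (10.8%), and 1 each with the presence filter (11.6%), with 2 groups alone (7.25%) and by the methods' t-test (6.64%). Median differences of all, large-subunit and small-subunit members were -0.14, -0.15 and -0.0939 with arrays centred on their median, 0.48, 0.47 and 0.52 with the controls as zero and 0.43, 0.42 and 0.48 with the signal range as zero. The median of all genes went from 0.13 to -0.23, 0.39 and 0.34 in these 3 scalings, and to 0.01 after quantile normalisation. The subunit difference was -0.0047 with probe sets averaged and -0.0069 with probe sets without a suffix. Probe sets called numbered 4 without the 30% lowest, 78 with the presence filter, 348 with the prior and 1774 by the methods' t-test unadjusted. The last also called 1 member, Rpl28, whose single-symbol probe set was present on no array.

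For CCl4+Rot against CCl4, 0 probe sets were called after quantile normalisation, with either filter, with 2 groups alone, with the controls or the signal range as zero and by the methods' t-test with Benjamini-Hochberg adjustment, and 851 without adjustment. With arrays centred on their median the medians were 0.21, 0.22 and 0.20. With the controls as zero the small-subunit median was -0.19. After quantile normalisation, and with the signal range as zero, 1 member was lower at an unadjusted p under 0.05 (all genes 2.84% and 4.41%).

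For CCl4+Rot against vehicle, probe sets called numbered 3 after quantile normalisation, 2 with array medians, 22 and 63 with the filters, 1 with 2 groups alone, 241 with the prior, 1 with the controls and 5 with the signal range as zero, and 2126 and 0 by the methods' t-test without and with adjustment. Members higher at an unadjusted p under 0.05 numbered 4 after quantile normalisation (all genes 6.59%), 1 with 2 groups alone (10.2%), 2 with the prior (8.85%), 25 by the methods' t-test (10.3%) and 2 with the signal range as zero (7.87%).

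The trended robust prior combined with other choices was added after seeing the data. Without CCl4 3 it called 313, 11 and 365 probe sets in the 3 comparisons and 2 members (CCl4 against vehicle), with 30, 23 (lower) and 20 members at an unadjusted p under 0.05 (all genes 9.99%, 3.58% and 11.5%) and a small-subunit median of -0.22 in the second. With the signal range as zero it called 502 and 235 probe sets for CCl4 and for CCl4+Rot against vehicle, and 2 members for CCl4, with 35, 12 (lower) and 27 members at an unadjusted p under 0.05 (18.2%, 5.77% and 10.2%). After quantile normalisation it called 235, 2 and 127 probe sets, with 34, 11 (lower) and 26 such members (9.15%, 3.7% and 8.2%).

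With each array left out in turn, members higher at an unadjusted p under 0.05 ranged from 0 to 24 for CCl4 against vehicle, the 24 without CCl4 3, and the subunit difference from -0.0925 to -0.0096. For CCl4+Rot against CCl4, members lower ranged from 0 to 5, the 5 without CCl4 3, the small-subunit median from -0.22 to 0.0495 and probe sets called from 0 to 2. For CCl4+Rot against vehicle, members higher ranged from 0 to 2 and probe sets called from 0 to 24, the 24 without CCl4 2. With 1 array fewer, the remaining arrays carry the estimate of the spread.

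With the animal number as a replicate block, 0, 1 and 8 probe sets and 0 members were called, so that the block changed no call. The numbers gave no sign of pairing: deviations of the arrays sharing a number correlated at -0.0896 (animal number 3), -0.00466 (4) and -0.0125 (5). Signals of probe sets not called present have no interpretable fold.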
